A study of Mus musculus with 8 samples.

Results

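The genes described here are 10 immediate early transcription factor genes, of the AP-1 and Egr families, followed in sensory neurons sorted from adult mice. They are Fos, Fosb and Fosl2, then Jun, Junb and Jund, then Egr1, Egr2 and Egr3, and Ier2. They were taken by symbol from the 55573 genes of the count table, and all 10 were found and were among the 22013 that passed the filter on low counts. C low-threshold mechanoreceptors (C-LTMRs), unmyelinated touch neurons, had been sorted by their GFP, and their polyadenylated RNA was sequenced. The animals were wild type (WT) or bhlha9 KO, which lack a basic helix-loop-helix factor, and the study's title concerns temperature choice, formalin pain and sex. The 4 groups were male WT, male KO, female WT and female KO, each with 2 libraries that the submitters call biological replicates (n = 2 throughout). The transgene behind the GFP and the number of animals per library are not given in the sources used here, so p-values measure the spread between these libraries.

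Immediate early genes are switched on within minutes of a stimulus, because the factors that drive them, such as SRF with its ternary complex partners and CREB, already sit in the cell and need only to be phosphorylated. Fos and Jun proteins pair through leucine zippers into AP-1, which binds DNA at TGANTCA, while Egr proteins are zinc finger factors. Their mRNAs decay fast, so a level in a snapshot reflects recent signalling. Here the cells were sorted before their RNA was taken, so signalling in the animal and during sorting cannot be told apart. In sensory ganglia Fos and Egr1 are used as marks of recent activity, and Jun is also known for its induction after axon injury.

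Counts per library ran from 50919885 to 71956309, at which 3 counts equalled at most 0.0587 CPM (counts scaled to the library total), so the depth did not limit any of the 10 genes. Bhlha9 stood between 127 and 161 CPM in the WT libraries and at 0.47 CPM or less in the KO libraries. Th, the enzyme that marks C-LTMRs, stood between 2973 and 5358 CPM. As a set the 10 genes varied about as much as tested genes of at least 5 CPM on average. Their median biological coefficient of variation was 27.1%, against 28% for those genes and 51.4% over all tested genes. The sets were not matched on level, and Egr3, with a mean of 3.3 CPM, lay below that cutoff. Single genes of the 10 ran from 17.8% for Jund to 91.6% for Egr3. In bulk RNA, fewer cells of a type and less RNA per cell cannot be told apart.

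The level of each gene was first set per kilobase of exon (CPM per kb), the scale on which genes can be compared. Fos stood highest, with a mean over 8 libraries of 153 CPM per kb, above 97.8% of tested genes. Jund, the Jun protein gene known for steady expression in resting cells, followed at 117 and Junb at 91.9 CPM per kb. Next came Jun at 46.3, Egr1 at 35.2 and Ier2 at 25.5 CPM per kb. The remaining genes were far lower, with Fosb at 3.95, Egr2 at 2.31, Egr3 at 0.75 and Fosl2 (Fra-2) at 0.641 CPM per kb. Neighbours in this order overlapped in their ranges over libraries. Fos ran from 91.1 to 219 CPM per kb and Jund from 92.6 to 155, and Egr2 from 0.213 to 7.87 while Egr3 ran from 0.0988 to 2.79. Junb at its lowest, 53.1, still stood above the highest library of Ier2, at 49 CPM per kb.

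Positions are those of the deposited count table (GRCm38). Fos lies on chromosome 12 from 85473890 to 85477273 (plus strand), Jun on chromosome 4 from 95049034 to 95052222 (minus) and Egr2 on chromosome 10 from 67535475 to 67542188 (plus). Junb (84974484 to 84978718) and Ier2 (84661331 to 84662854) both lie on the minus strand of chromosome 8. Reads were counted without strand, and 3 of the 10 genes shared exon bases with a gene on the other strand. Jund shared 877 of its 1668 exon bases with Gm11175, Jun shared 232 of 3189 with Junos, and Junb shared 173 of 2301 with Prdx2. Reads over those bases were counted for both genes and cannot be told apart. The shared part of the exons was largest for Jund. Over the 8 libraries Gm11175 held 80068 counts against 96413 for Jund, and Junos 9796 against 72954 for Jun. Prdx2 held 204627 counts against 104004 for Junb. The share of each gene's reads that fell on the shared bases was not measured.

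The sequence before the start of transcription is shown for the genes that stood higher in both male KO libraries than in both male WT libraries and had an entry in the RefSeq promoter table (GRCm38.p6), except Egr1, whose sequence was not used here. Each is written 5′ to 3′ on the gene's own strand, with positions counted back from the base before the start (-1). Capitals mark the CRE core, TGACG on either strand, at which CREB-type factors bind, and the CArG box, at which SRF binds. The Fos window is chr12:85473640-85473889, the Jun window chr4:95052223-95052472 (minus strand), the Junb window chr8:84978749-84978998 (minus strand) and the Egr2 stretch chr10:67537794-67537823, 75 to 46 bases before 1 of its listed starts.
Fos: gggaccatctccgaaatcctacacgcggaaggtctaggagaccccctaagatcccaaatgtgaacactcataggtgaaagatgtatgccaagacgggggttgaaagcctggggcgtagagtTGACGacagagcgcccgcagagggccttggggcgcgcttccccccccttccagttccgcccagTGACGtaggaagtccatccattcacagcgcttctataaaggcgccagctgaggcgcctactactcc
Jun: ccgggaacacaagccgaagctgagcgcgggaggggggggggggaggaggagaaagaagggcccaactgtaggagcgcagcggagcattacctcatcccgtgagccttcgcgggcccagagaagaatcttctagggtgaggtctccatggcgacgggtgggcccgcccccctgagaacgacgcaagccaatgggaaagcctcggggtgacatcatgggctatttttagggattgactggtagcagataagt
Junb: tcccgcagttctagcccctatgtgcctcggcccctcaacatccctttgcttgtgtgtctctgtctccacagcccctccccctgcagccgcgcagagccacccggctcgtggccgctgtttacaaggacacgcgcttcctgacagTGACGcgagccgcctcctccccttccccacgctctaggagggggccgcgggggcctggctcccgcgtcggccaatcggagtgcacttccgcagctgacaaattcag
Egr2: agtCCATATATGGgcagcgaCGTCAcgggt
The Fos window holds the CRE core at -129 to -125 and again at -66 to -62, and the Junb window at -106 to -102. The Egr2 stretch holds the CArG box at -72 to -63 with a CRE core on the other strand at -55 to -51. Over the 250 bases before the start, 4 of the 7 members with an entry used here had the CRE core (Fos, Fosb, Junb and Egr2), against 17.8% of 32851 promoters of all genes. The shares over all genes count single promoters, whereas Egr2 has 5 listed starts and was counted if any matched, so the counts and shares are not in the same unit. Of those 5 starts, 3 had the CRE core and 4 the CArG box. The windows of the 3 with the CRE core overlap and hold the same sites. The CArG box was found in 1 of the 7 (Egr2), against 1.47% of all promoters. The Egr site GCGNGGGCG was found in Fosb and Fosl2, against 4.7% of all, and TGANTCA in none of the 7, against 6.75% of all. The full palindrome TGACGTCA, which contains the CRE core, was also found in none of the 7 and in 1.55% of all promoters. The Jund window, chr8:70697489-70697738, lies before an upstream listed start. The counted exons of Jund begin at 70698949, so the bases directly before them were not scanned. These are matches of letters on either strand and not measured binding, and a missing match says only that the letters are not in this window.

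The first comparison asked how the genes differed between male KO and male WT. Ier2, Jun, Fos, Junb, Egr1 and Egr2 were each higher in both KO libraries than in both WT libraries. That is 6 of 10 genes, against 14.5% of all tested genes. By the edgeR test over all genes none of the 10 passed (adjusted p = 1 for each), as 0.00454% of tested genes did. At an unadjusted p below 0.05, 4 of the 10 were higher (Fos, Jun, Egr1 and Ier2) and 0 lower, against 2.05% and 1.44% of all tested genes (3.5% in either direction). The log2 fold change was above 0 for 8 of the 10, where 51.9% of tested genes were, and its median was 0.91, against 0.02 over all tested genes. The median of the 10 was 1.47 without male_WT1 and 0.64 without male_KO1, with 7 genes above 0 in the latter case.

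Ier2, which encodes a short nuclear protein, stood at 19.4 and 11.3 CPM in male WT and at 60.4 and 74.7 CPM in male KO. The groups lay far apart, and the lower KO library was above the higher WT library by more than the range within either group. The log2 fold change was 2.14 (SE 0.33, 95% confidence interval 1.35 to 2.92), or 4.4-fold, and it ranked 7 by p among tested genes. DESeq2 on the same 8 libraries gave Ier2 an adjusted p of 2.03e-06, and it called 1.06% of the genes it could adjust.

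Jun, the main transactivating partner in AP-1, stood at 109 and 70.9 CPM in male WT and at 245 and 228 CPM in male KO. Both KO libraries were above every other library of the study for this gene. The log2 fold change was 1.4 (SE 0.38, interval 0.5 to 2.29), and DESeq2 gave an adjusted p of 0.041. Junb, which often restrains Jun, stood at 201 and 122 CPM in WT, against 261 and 229 CPM in KO (0.6, SE 0.29, interval -0.09 to 1.29). Its value was 1.0 without male_WT1 and 0.25 without male_WT2. Jund stood at 206 and 163 CPM in WT, against 177 and 176 CPM in KO, with the KO libraries inside the WT range (-0.06, SE 0.21, interval -0.58 to 0.45).

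Fos stood at 292 and 214 CPM in male WT and at 515 and 480 CPM in male KO, again with no overlap (0.97, SE 0.37, interval 0.09 to 1.86). Its close relative Fosb overlapped between the groups, at 24.7 and 6.95 CPM in WT and 35.5 and 21.5 CPM in KO (0.85, SE 0.7), with a log2 fold change of 0.18 without male_WT2 and 2.03 without male_WT1. Fosl2, which is usually induced later and more lastingly than Fos, was the member that lay the other way. It stood at 12.4 and 4.27 CPM in WT, against 4.07 and 3.59 CPM in KO, just below the lower WT library (-1.12, SE 0.85, interval -3.15 to 0.91). Without male_WT1 the value was -0.16, and without male_WT2 it was -1.72.

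Egr1 stood at 139 and 112 CPM in male WT and at 232 and 215 CPM in male KO, with the KO libraries close together and above all 6 other libraries (0.84, SE 0.23, interval 0.29 to 1.39). Egr2, also the master factor of myelinating Schwann cells, stood at 4.06 and 3.22 CPM in WT, against 26.7 and 10.6 CPM in KO (2.36, SE 1.05, interval -0.15 to 4.87). Egr3, an Egr factor needed for muscle spindles, was high in 1 library only, at 2.98 and 0.566 CPM in WT against 12.3 and 0.801 CPM in KO (1.88, SE 1.38). Without male_KO1 the sign of Egr3 turned (-1.14), so its male value rested on that library. In the same library S100b, a glial calcium-binding protein, stood at 321 CPM against 61 CPM in male_KO2 and at most 35.3 CPM in the other 6, and Nefh, the heavy neurofilament of myelinated afferents, at 1549 CPM against 296 CPM in male_KO2. The part of glia and myelinated afferents in the Egr2 and Egr3 values was not tested.

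**Figure D1:**
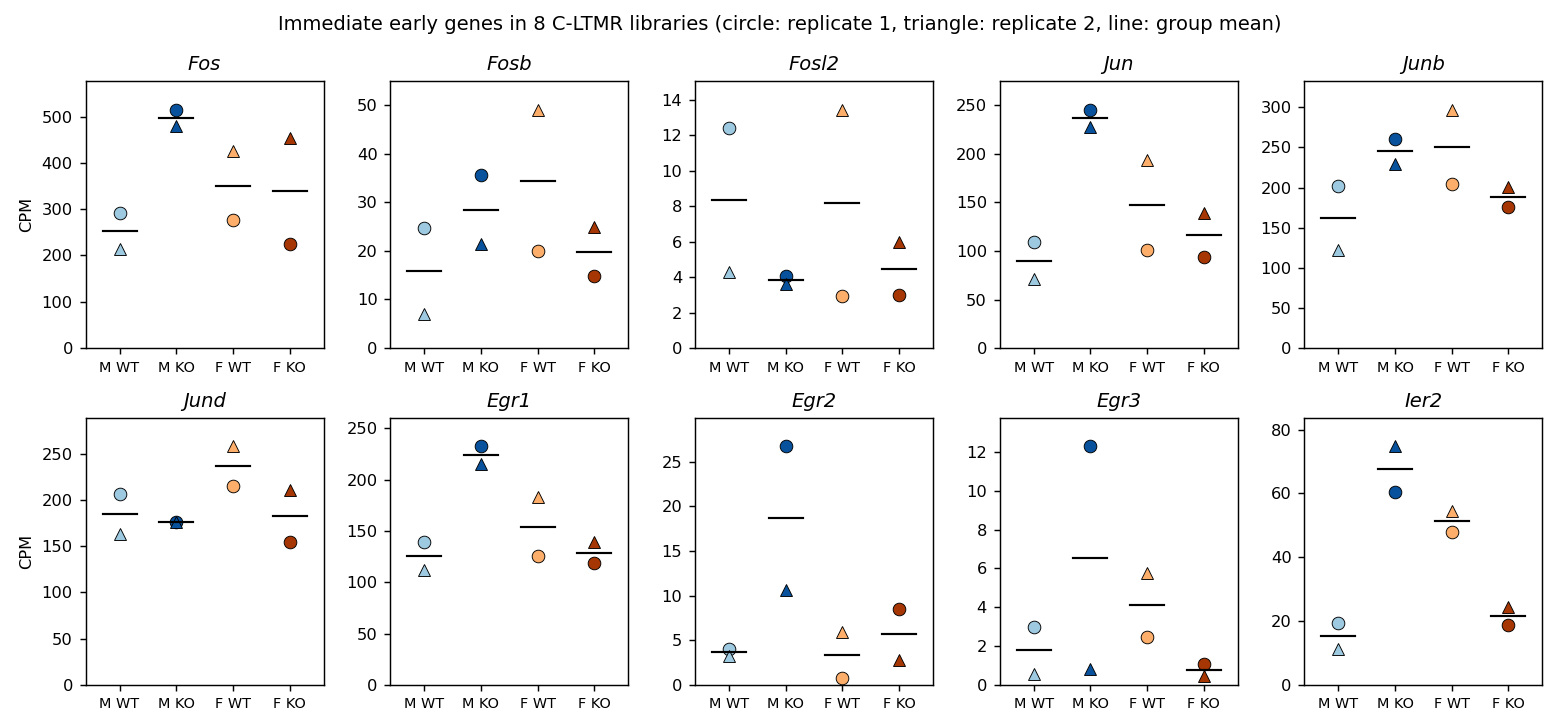
CPM (vertical axis, from 0, own scale per gene) of the 10 genes in male (M) and female (F) WT and KO libraries. Circles are replicate 1, triangles replicate 2, and lines the mean of 2 libraries. Ier2 separates the groups in both sexes, with male KO at 60.4 and 74.7 CPM and female KO at 18.6 and 24.3 CPM, while Fosl2, Egr2 and Egr3 vary widely within groups.

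In the authors' deposited table of male genes past 5%, 3 of the 10 genes were among its 150 rows, of which 140 were higher in KO. The authors' deposited table gave Ier2 a log2 fold change of 1.66 (SE 0.31, adjusted p = 3.89e-05), Egr2 1.41 (SE 0.365, adjusted p = 0.0177) and Jun 1.18 (SE 0.269, adjusted p = 0.00285). The authors' deposited table for females had 13 rows and held none of the 10 genes.

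In females the same comparison lay mostly the other way, and more weakly. The log2 fold change of KO over WT was below 0 for 9 of the 10 genes, where 49% of all tested genes were above 0, with a median of -0.39 against 0 over all tested genes. Both KO libraries lay below both WT libraries for Ier2, Junb, Jund and Egr3, that is 4 of 10 against 15.1% of tested genes, and above them for none, against 14.2%. By edgeR none of the 10 passed (adjusted p = 1 for each, 0.00454% of genes called), and 1 of 10 was lower at an unadjusted p below 0.05, against 1.9% of tested genes (3.81% in either direction). The lean of the list rested on female_WT2, since without it 5 genes were higher and 5 lower, with a median of 0.02. Without female_WT1 all 10 were lower, with a median of -0.7.

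Ier2 stood at 48 and 54.6 CPM in female WT and at 18.6 and 24.3 CPM in female KO. Both KO libraries were below both WT libraries and lay near the level of male WT. The log2 fold change was -1.26 (SE 0.32, interval -2.02 to -0.49), and DESeq2 on 8 libraries gave an adjusted p of 0.0396. Leaving out any 1 library kept it between -1.47 and -1.07.

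Among the Jun genes, Junb stood at 204 and 297 CPM in female WT and at 176 and 200 CPM in KO (-0.41, SE 0.29), with the nearest WT and KO libraries almost equal. Jund stood at 215 and 258 CPM in WT, against 154 and 210 CPM in KO (-0.38, SE 0.22), also nearly touching. Jun overlapped, at 101 and 193 CPM in WT and 93.6 and 139 CPM in KO (-0.34, SE 0.37, interval -1.22 to 0.54).

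Fos showed no shift of its mean, at 276 and 425 CPM in female WT and 225 and 454 CPM in female KO (-0.05, SE 0.37, interval -0.93 to 0.83). Here the spread within each group was far larger than the difference between them. Fosb stood at 19.9 and 49 CPM in WT, against 14.8 and 24.9 CPM in KO (-0.8, SE 0.7). Fosl2 stood at 2.93 and 13.4 CPM in WT, against 2.99 and 5.95 CPM in KO (-0.87, SE 0.85), with the KO libraries inside the WT range.

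Egr1 stood at 125 and 183 CPM in female WT and at 119 and 139 CPM in KO (-0.26, SE 0.23, interval -0.8 to 0.29), which overlapped. Egr2 was the 1 gene with a higher mean in female KO, at 0.723 and 5.91 CPM in WT and 8.55 and 2.82 CPM in KO (0.78, SE 1.01). Its WT libraries differed 8.17-fold from each other, so the groups could not be separated. Egr3 stood at 2.47 and 5.78 CPM in WT, against 1.1 and 0.435 CPM in KO (-2.43, SE 1.41, interval -5.8 to 0.94).

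**Figure D2:**
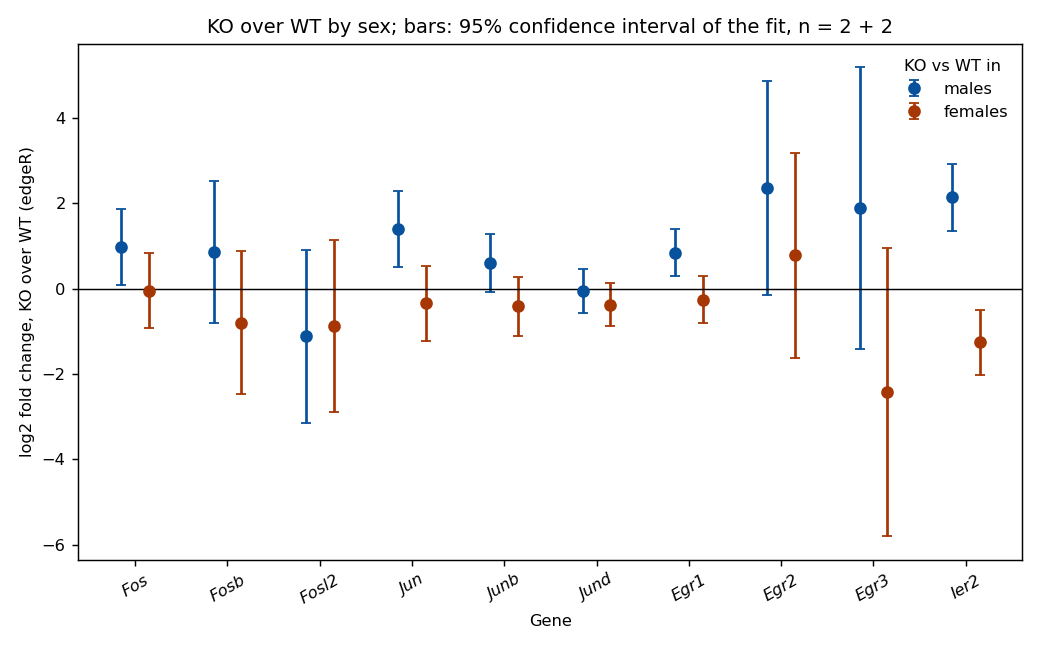
Log2 fold change of KO over WT (vertical axis, edgeR) for the 10 genes (horizontal axis) in males (blue) and females (orange), 2 libraries against 2, with 95% confidence intervals. The intervals of Ier2 lie on opposite sides of 0 (1.35 to 2.92 in males and -2.02 to -0.49 in females); those of Fosb, Fosl2, Junb, Jund, Egr2 and Egr3 cross 0 in both sexes.

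The difference between the sexes was then tested directly, as the log2 ratio of KO to WT in males minus that in females. It was above 0 for 9 of the 10 genes, where 51.3% of all tested genes were, with a median of 1.34 against 0.02. No gene of the 10 passed by edgeR (adjusted p from 0.98 to 1, with 0% of tested genes called). At an unadjusted p below 0.05, 4 of the 10 were positive (Jun, Junb, Egr1 and Ier2), against 2.75% of tested genes, and 0 were negative, against 1.98% (4.73% in either direction). The median was 0.75 without female_WT2. Ier2 differed by 3.39 (SE 0.46, interval 2.3 to 4.48), which ranked 1 of the 22013 tested genes by p. DESeq2 gave the Ier2 difference an adjusted p of 1.47e-08, and it called 1.28% of the genes it could adjust. Jun differed by 1.74 (SE 0.53, interval 0.49 to 2.99), Egr1 by 1.09 (SE 0.32, interval 0.32 to 1.87) and Junb by 1.01 (SE 0.41, interval 0.04 to 1.99). Fos differed by 1.02 (SE 0.52), with an interval from -0.23 to 2.27, and Fosl2 by -0.25 (SE 1.19).

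The sexes were also compared within each genotype. In WT, 8 of the 10 genes had log2 differences above 0 (higher in females), where 50.7% of tested genes did, with a median of 0.55. That median was 0.98 without male_WT1, 0.25 without male_WT2 and 0.2 without female_WT2. Both female WT libraries were above both male WT libraries for Ier2, Junb and Jund (3 of 10, against 19.6% of tested genes) and below them for none (18.8%). Ier2 was 3.34-fold higher in female WT (1.74, SE 0.32, interval 0.97 to 2.51), with edgeR adjusted p = 0.903 and DESeq2 adjusted p = 0.000389. In KO the order was opposite, with 8 of 10 genes lower in females a median of -0.67, and 49.3% of tested genes above 0. The median was -0.39 without male_KO1 and -1.04 without female_KO2. Both female KO libraries lay below both male KO libraries for 6 genes (Fos, Jun, Junb, Egr1, Egr2 and Ier2), against 14.7% of tested genes, and above them for none (12.6%). Ier2 was 3.15-fold lower in female KO (-1.65, SE 0.32, interval -2.42 to -0.88; edgeR adjusted p = 1, DESeq2 adjusted p = 0.000558). The comparisons between sexes use the same libraries as those between genotypes and are not independent of them. By edgeR 0% of tested genes passed between the sexes in either genotype. At an unadjusted p below 0.05 it gave 1 of the 10 genes higher in WT (Ier2) and 0 lower, against 2% and 2.44% of tested genes (4.44% in either direction). In KO it gave 3 of the 10 lower (Jun, Egr1 and Ier2) and 0 higher, against 2.86% and 1.38% (4.24% in either direction).

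The 10 genes also moved together between libraries of 1 group, where genotype and sex are the same. In male WT all 10 were higher in male_WT1 than in male_WT2, and in female WT all 10 were higher in female_WT2 than in female_WT1. In male KO 9 were higher in male_KO1, and in female KO 8 were higher in female_KO2. As a mean of centred log2 CPM, the list stood highest in male_KO1 (0.87) and female_WT2 (0.72) and lowest in male_WT2 (-0.87). It stood at 0.24 in male_KO2 and 0.05 in male_WT1, and at -0.24, -0.35 and -0.41 in female_KO2, female_WT1 and female_KO1. On this score both male KO libraries were above both male WT libraries, while the female groups overlapped. Since the genes share these shifts between libraries, their agreement in direction is not that number of separate observations.

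**Figure D3:**
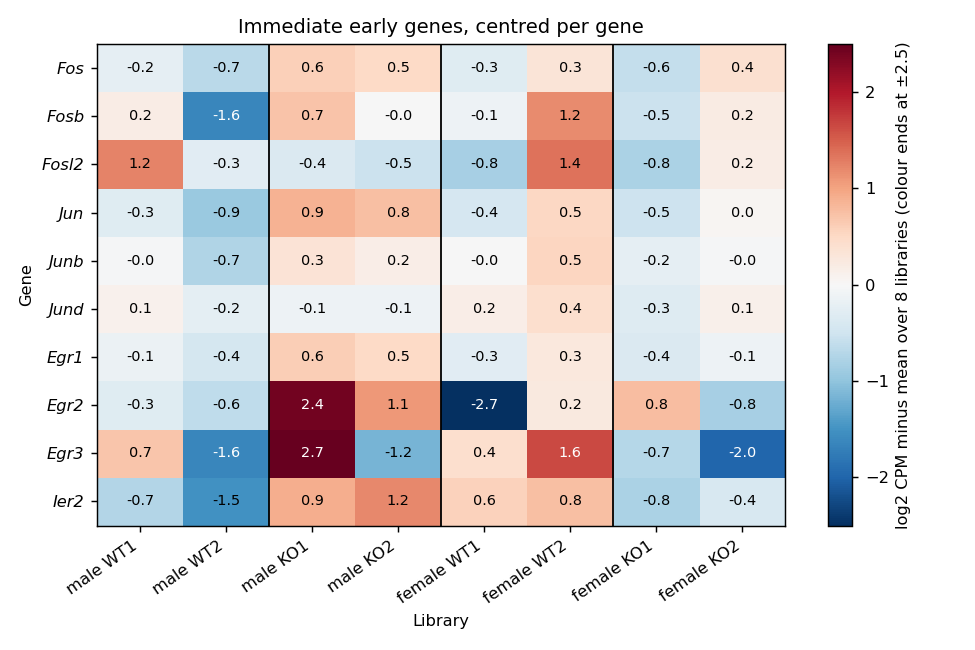
Log2 CPM of the 10 genes (rows) in 8 libraries (columns), each gene centred on its mean over the libraries; red is above and blue below that mean. The columns of male_WT2 (score -0.87) and female_WT2 (0.72) are nearly uniform in colour and differ from the other library of their group.

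Likeness within the list was described by Pearson correlation of a gene's log2 CPM with the mean of the other 9 genes, over 8 libraries that share their groups. It was 0.916 for Junb, 0.886 for Egr1, 0.882 for Jun, 0.862 for Fosb and 0.768 for Fos. It was 0.681 for Ier2 and 0.625 for Egr3, and lower for Egr2 (0.417), Jund (0.385) and Fosl2 (0.267). In female_WT1, Ier2 was at 48 CPM while Jun, Fos and Egr1 were each below their level in 5 of the other libraries. Among 11848 other genes of at least 5 CPM, the nearest to the mean of the 10 over the 8 libraries were Ptn (r = 0.963), Gm26840 (0.959), Esd (0.931), Pak1ip1 (0.93) and Vwa1 (0.927). Ptn, the growth factor pleiotrophin, stood at 19.5 and 10 CPM in male WT, 57.3 and 36.3 in male KO, 21.1 and 46.9 in female WT and 15.3 and 15.6 in female KO. Vwa1, an extracellular matrix protein gene, ranged from 7.81 CPM in female_KO1 to 48.4 CPM in male_KO1. These genes were picked as the closest of many, so the values carry no test.

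Other genes of the response were read from lists of pathway genes. Of 27 tested further immediate early genes, 16 were higher and 11 lower in male KO (median 0.26), and 6 were higher and 21 lower in female KO (median -0.28). None passed by edgeR in either sex. At an unadjusted p below 0.05, 3 were higher in males, against 2.05% of all tested genes, and 2 lower in females, against 1.9%. DESeq2 passed 1 in each sex, against 1.06% of all genes it could adjust in males and 1.13% in females. Ccn1, a matricellular protein gene driven by SRF, stood at 59.3 and 17.2 CPM in male WT, 118 and 164 in male KO, 84.5 and 154 in female WT and 28.9 and 53.3 in female KO. Its groups did not overlap in either sex, as for Ier2. The log2 fold changes of Ccn1 were 1.88 (SE 0.63) in males and -1.54 (SE 0.63) in females, and the difference of 3.42 (SE 0.89) had an edgeR adjusted p of 0.98 and a DESeq2 adjusted p of 0.00841. Klf6, a zinc finger factor, stood at 62.9 and 57.4 CPM in male WT and at 88.6 and 99.3 CPM in male KO (0.64, SE 0.18, DESeq2 adjusted p = 0.0265). Zfp36, which speeds mRNA decay, stood at 55.5 and 34.4 CPM in male WT and 85.7 and 79.5 CPM in male KO (0.88, SE 0.35). In females Ier5l, an Ier family gene, stood at 9.81 and 17.4 CPM in WT, against 1.35 and 2.67 CPM in KO (-2.76, SE 0.75, DESeq2 adjusted p = 0.0259). Atf3, a bZIP factor induced with Jun after axon injury, overlapped in both sexes, at 207 and 74.7 CPM in male WT and 245 and 121 CPM in male KO (0.38, SE 0.61).

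Of the 10 feedback inhibitors, 3 were higher and 7 lower in male KO (median -0.32), and 6 were higher and 4 lower in female KO (median 0.33). Dusp1, an inducible MAP kinase phosphatase that is itself an immediate early gene, lay with the 10 genes in males, at 104 and 96.4 CPM in WT and 140 and 173 CPM in KO (0.64, SE 0.18). Spry4, an inhibitor of receptor tyrosine kinase signalling, lay the other way, at 60.3 and 74.7 CPM in WT and 34.8 and 45.2 CPM in KO (-0.76, SE 0.28). Dusp6, the phosphatase of ERK, stood at 25 and 27.4 CPM in female WT and at 39.1 and 68.2 CPM in female KO (1.03, SE 0.29). The 24 upstream factors and kinases stayed near the median of all genes, with 10 higher and 14 lower in males (median -0.06) and 12 each way in females (median -0.02). Srf, the factor of the CArG box, stood lower in female KO (-0.95, SE 0.32), with no overlap of libraries. The 10 tested other bZIP partners had medians of -0.01 in males and 0.01 in females. Of the 9 late genes of neuronal activity, 6 were higher in males (median 1.19) and 4 in females (median -0.19). The 3 that were lower in males were the most abundant of the list, with means of 135 to 514 CPM over 8 libraries. The 6 higher ones had means of 0.493 to 58.6 CPM, and their male log2 fold changes had SEs of 0.86 to 3.5. Of 11 heat shock genes, 10 were higher in male KO by a median of 0.23, and 6 were higher in female KO by 0.03. No gene of these 5 lists passed by edgeR or by DESeq2 on 8 libraries in either sex. At an unadjusted p below 0.05, edgeR gave 1 gene higher and 1 lower among the inhibitors in males and 1 higher in females, 1 higher and 1 lower among the upstream factors in females, 1 higher in males and 2 higher in females among the bZIP partners, and 1 lower among the late genes in females. Over all tested genes the shares were 2.05% higher and 1.44% lower in males and 1.9% each way in females.

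**Figure D4:**
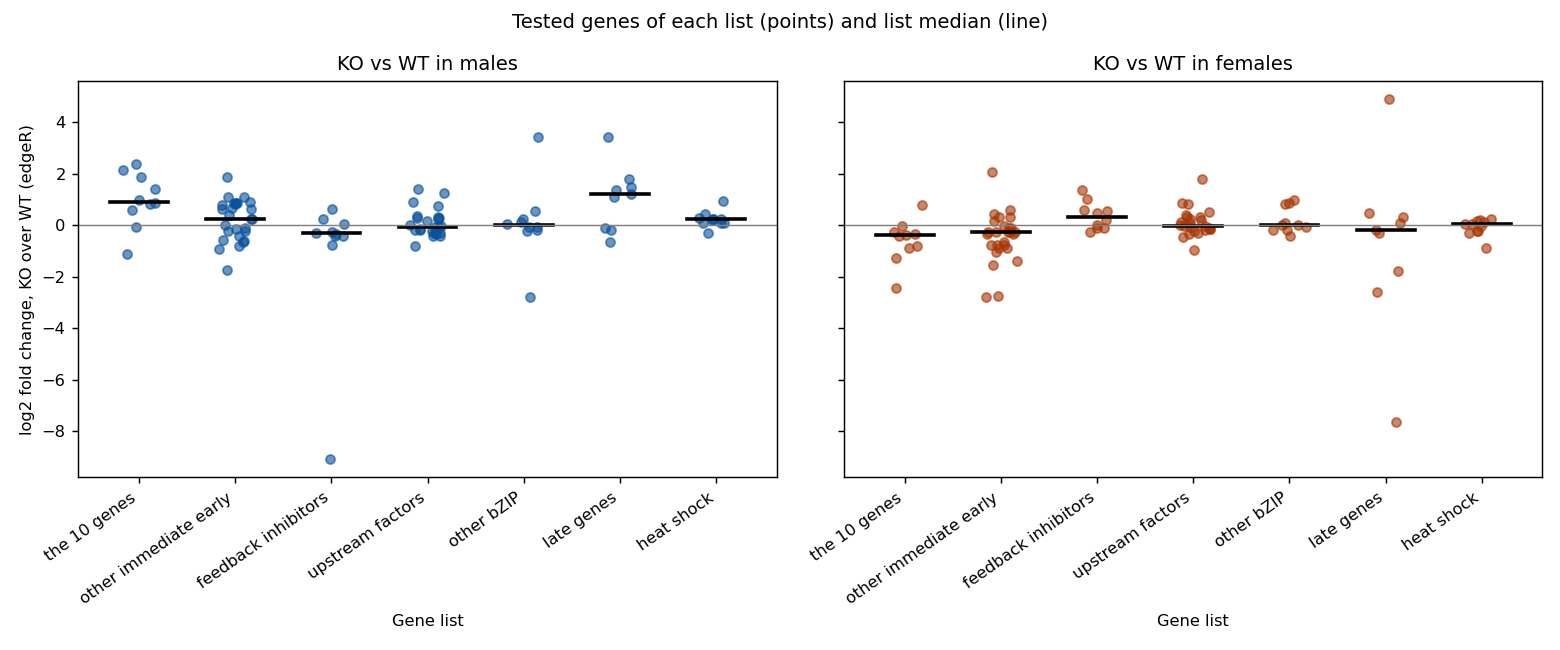
Log2 fold change of KO over WT (vertical axis, edgeR) for every tested gene (points) of each list (horizontal axis) in males (left) and females (right), with the list median as a line. The 10 genes lie at a median of 0.91 in males and -0.39 in females, and the upstream factors at -0.06 and -0.02.

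Markers of other cells were summed over each list, as CPM, beside these values. The glial and Schwann cell list (12 genes, of which Pmp22 and Apoe were the most abundant) was lowest in female_KO1 (3407 CPM) and male_WT2 (3643 CPM), and between 5168 and 6040 CPM in the other 6 libraries. Those were also the libraries with the lowest summed level of the 10 genes, 814 and 709 CPM, against 996 to 1569 CPM in the others. The glial sum leans on its most abundant genes, which did not move alike. Apoe stood at 727 and 345 CPM in these libraries, against 1908 to 3032 CPM in the other 6. Pmp22 was lowest in male_KO1 (1643 CPM), where the 10 genes summed highest. In female_KO2, which had the highest glial sum, S100b stood at 5.01 CPM, against 35.3 CPM in female_KO1. Sox10, which defines the glial lineage, stood at 5.8 and 1.57 CPM in male WT, 12 and 10.6 in male KO, 6.14 and 5.95 in female WT and 1.19 and 2.04 in female KO. Like Ier2, Sox10 was thus higher in both male KO and lower in both female KO libraries. Of the 11 tested glial genes 8 were higher in male KO (median 1.13) and 8 lower in female KO (median -0.42). Peptidergic markers (9 genes) summed to 700 and 755 CPM in male WT and 1516 and 2121 in male KO, and to 1219 and 1994 in female WT and 1565 and 507 in female KO. Myelinated afferent markers (9 genes) summed to 1279 to 1444 CPM in male WT, 2092 to 5891 in male KO, 1109 to 1198 in female WT and 1287 to 1472 in female KO. C-LTMR markers (12 genes) summed to 8861 and 8913 CPM in male WT and to 5814 and 8154 in male KO, with 7584 to 9000 in female WT and 8012 to 9973 in female KO. Of these 12 genes 0 were higher and 12 lower in male KO (median -0.35), where 51.9% of tested genes were higher. Both male KO libraries lay below both male WT libraries for 7, against 14.5% of tested genes. In female KO 11 were higher and 1 lower (median 0.17), with no overlap of libraries for 2 of the higher ones, against 14.2%. Immune markers (10 genes) summed to at most 28.6 CPM, with Itgam at 0 in all libraries. The other lists were nonpeptidergic markers at 15.8 to 296 CPM, vascular and fibroblast markers at 354 to 552 CPM, of which Rgs5 gave at least 337 CPM in every library, and red blood cell markers at 0.225 to 20.6 CPM, highest in male_WT2. Of the vascular and fibroblast genes 10 of 12 were higher in male KO (median 3.55) and 8 lower in female KO (median -2.74), at levels under 27 CPM for all but Rgs5. Most of these genes had 0 counts in 2 to 5 of the 8 libraries, so their fold changes lean on counts at or near 0. Libraries did not overlap for 6 of the higher genes in males, against 14.5% of tested genes. In females they did not overlap for 2 of the lower genes (15.1%) and 1 of the higher (14.2%). Of the 9 peptidergic genes 8 were higher in male KO and 8 lower in female KO. The part of these cells in the levels of the 10 genes was not tested.

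**Figure D5:**
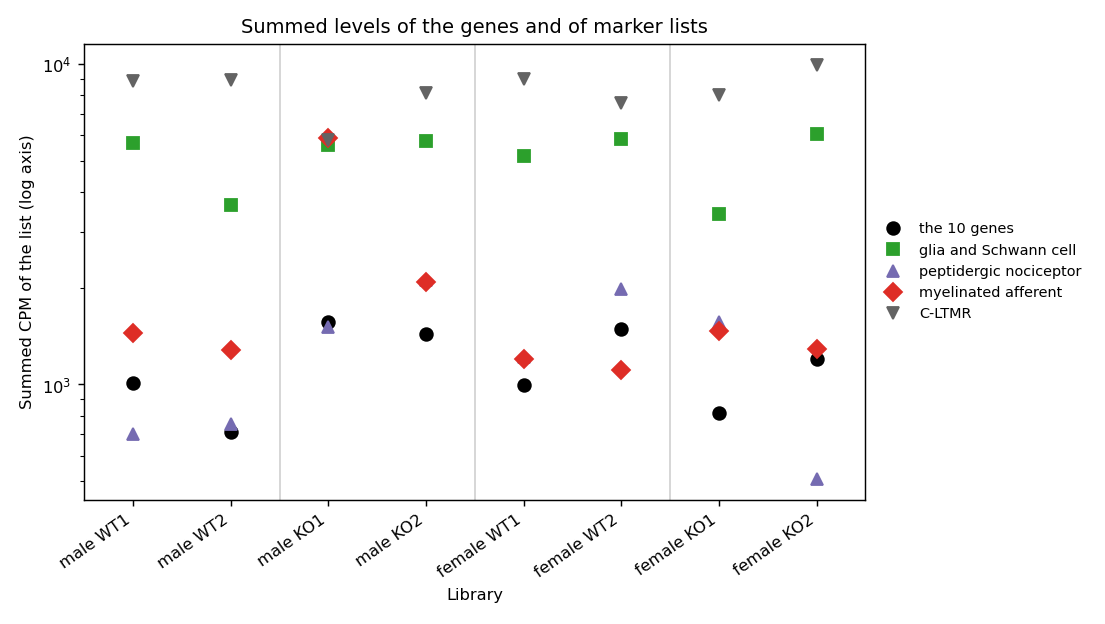
Summed CPM (log axis) of the 10 genes and of the glial, peptidergic, myelinated afferent and C-LTMR marker lists in each of the 8 libraries (horizontal axis). The sum of the 10 genes is lowest in male_WT2 (709 CPM) and female_KO1 (814 CPM), where the glial sum is also lowest (3643 and 3407 CPM). That glial sum leans on Pmp22 and Apoe, and Apoe is lowest in these same libraries (345 and 727 CPM).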

How the data were processed

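The deposited table holds whole-number counts of reads per gene (unit: count), which featureCounts 1.6.1 assigned to Ensembl exons (GRCm38, release 97) without strand, with reads over several genes counted in each, per the file headers. No source used here names the aligner. The authors' deposited tables hold log2 fold changes with SE (unit: log2), a test statistic (unit: score) and p-values, for genes past 5% only; DESeq2 1.14.1 is named in the submitters' processing notes. RNA came from 500 pg inputs amplified without molecular identifiers, per the labels' protocols, so floors of 3 counts cover counting error only.

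Symbols were found for 55394 of 55573 genes. The 22013 genes kept by filterByExpr were tested with edgeR 4.0.16 in R 4.3.3 (TMM scaling, robust quasi-likelihood F tests, 4 groups over 8 libraries, 4 residual degrees of freedom, two-sided, Benjamini-Hochberg over all tested genes, threshold 0.05). The SE is the absolute log2 fold change divided by the square root of F, and intervals are at 95%. Centred log2 CPM used a prior count of 2. DESeq2 1.42.0, RLE scaling, no filter, 4 libraries only, a replicate block, non-robust fits and leaving out each library were alternatives. The test was tried on simulated counts for male KO against male WT. It recovered 1 of 50 genes changed 2-fold, 15 of 50 changed 4-fold, 27 of 50 changed 8-fold and 35 of 50 changed 16-fold. A gene that did not pass is therefore not shown to be unchanged. The replicate numbers are not stated to mark a shared source.

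The 10 genes, the gene lists and the naming rule were chosen with earlier results of these data known. By that rule the text names the 10 genes, up to 3 genes per pathway list and comparison at an unadjusted p below 0.05 and at least 5 CPM, the most abundant markers and the 5 most alike genes. Atf3, S100b and Sox10, and which of the eligible genes to print, were chosen after their values were seen.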

Additional observations from a re-analysis of the deposited data

Results flagged for a closer look

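For Ier2 and Junb both male KO libraries lay above both male WT libraries while both female KO libraries lay below both female WT libraries. The log2 ratio of KO to WT in males minus that in females was 3.39 for Ier2 and 1.01 for Junb. The test of that difference gave an edgeR adjusted p of 0.98 for both, and a DESeq2 adjusted p of 1.47e-08 for Ier2 and 0.468 for Junb. Leaving out 1 library at a time, the difference ran from 3.01 to 3.83 for Ier2 and from 0.65 (without male_WT2) to 1.42 (without male_WT1) for Junb. The female value of Junb ran from -0.66 (without female_WT1) to -0.12 (without female_WT2).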

How the results depend on the processing

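With 2 libraries per group, the calls depended on the tool. DESeq2 on 8 libraries passed 2 of the 10 genes in males (Jun and Ier2) and 1, Ier2, in each of the other 4 comparisons, and over all genes it passed 209 in males, 230 in females, 276 for the difference between the sexes, 200 between the sexes in WT and 289 in KO, against 1, 1, 0, 0 and 0 by edgeR. DESeq2 on only the 4 libraries compared passed 4 of the 10 in males (Fos, Jun, Egr2 and Ier2), 1 in females, 1 between the sexes in WT and 1 in KO, and 372, 155, 369 and 326 of all genes. edgeR on only those 4 libraries passed 0 genes in males and 0 in females. Without the filter on low counts edgeR passed 3 genes between the sexes in WT and 3 in KO. The other edgeR settings passed none of the 10 genes in any comparison. A replicate block left 0 of the 10 genes passing in all 5 comparisons and 0 genes in females. The replicate 1 minus replicate 2 differences of male WT and male KO correlated at -0.0143 over genes and those of female WT and female KO at 0.00147, so the numbers were not taken as pairs. Leaving out 1 library at a time, the genes passing between the sexes in WT ran from 0 to 1.

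Some log2 fold changes turned sign when 1 library was left out. In males the ranges were -0.26 to 0.11 for Jund and -1.14 to 3.52 for Egr3. In females they were -0.64 to 0.37 for Fos, -1.59 to 0.61 for Fosl2, -0.73 to 0.20 for Jun, -0.51 to 0.043 for Egr1 and -0.23 to 2.97 for Egr2. For the difference they were -1.74 to 0.71 for Fosl2 and -0.61 to 2.59 for Egr2. Between the sexes they were -1.51 to 0.93 for Fosl2, -0.0048 to 0.54 for Egr1 and -2.33 to 0.70 for Egr2 in WT, and -0.36 to 0.64 for Fosl2 and -0.20 to 0.26 for Jund in KO. The male median of the 10 genes was 1.47 without male_WT1 and 0.64 without male_KO1, with 9 and 7 genes higher. In females it was -0.70 without female_WT1, -0.65 without female_KO2 and 0.02 without female_WT2. For the difference between the sexes it was 0.75 without female_WT2.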
